A study of Macaca fascicularis with 11 samples.

Results

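Transcripts of 4 genes that encode cell surface proteins, DPP4 (ENSMFAG00000041945), CD24 (ENSMFAG00000037584), PTPRZ1 (ENSMFAG00000032576) and EPHA4 (ENSMFAG00000037109), were followed through the lineages of cynomolgus macaque (Macaca fascicularis) embryos cultured in vitro past the stage of implantation. The genes were matched by symbol through the study's supplementary tables and are 4 of the 19367 genes in the table of single-cell RNA sequencing. The data comprise 11 droplet libraries, 6 from 12 wild-type embryos and 5 from 11 embryos mutant for ISL1, a LIM-homeodomain transcription factor, and each library pooled between 1 and 3 embryos. Both genotypes were grown in the same kind of embryo culture and collected on Day 10, Day 12 and Day 14, with 2 libraries for each genotype and day except the mutant on Day 10, which had 1. The mutant embryos came from zygotes injected with guide RNAs and Cas9, given as mRNA in the labels and as protein in the study's methods. Each is a mosaic of cells with different ISL1 alleles, mostly deletions that shift the reading frame, and the labels call these embryos hypomorphic.

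DPP4 (dipeptidyl peptidase 4, also CD26) is a membrane-bound serine peptidase that removes dipeptides from the ends of chemokines and peptide hormones such as CXCL12 and NPY, and it is best known from the surface of T cells and of kidney and gut epithelium. CD24 is a small, heavily glycosylated protein held in the membrane by a GPI anchor, and it is used as a surface marker of primed pluripotency and of many epithelia. PTPRZ1 is a receptor-type protein tyrosine phosphatase of the nervous system and of pluripotent cells that binds the growth factors PTN and MDK. EPHA4 is a receptor tyrosine kinase of the Eph family, which responds to ephrins on neighbouring cells and keeps cell populations apart, for example in the segmenting mesoderm and the hindbrain.

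Cells were clustered anew without these 4 genes among the clustering features, and clusters were named from other markers. They are called epiblast (Epi)-like, transition-like (in the study most likely epiblast on the way to mesoderm), mesoderm-like, amnion-like, extraembryonic mesenchyme (ExE-Mech)-like, endoderm-like and trophoblast-like cells. In all, 31508 of the 33330 cells lay in a named type. A unique molecular identifier (UMI) stands for 1 captured transcript, and levels are given in CPM, the UMIs of a gene per 1000000 UMIs of all genes, after the cells of each type had been summed within a library (at least 5 cells). Libraries held between 325 and 9625 cells and between 36655000 and 164808000 UMIs, with a median per cell of between 24720 and 142180 UMIs in wild-type and between 10916 and 99406 in mutant libraries, and 124 barcodes occurred in more than 1 library. The replicate was the library and not the cell, and because libraries pool embryos, the p-values measure the spread between libraries. A sum over cells does not tell apart a lower level in every cell from fewer cells that express the gene, so shares of cells are given with cells thinned to 5000 UMIs each. In amnion-like cells, ISL1 itself was at 18.3, 4.89, 149.9, 82.3 and 149.9 CPM in the 5 wild-type libraries that held such cells and at 88.5, 20.2, 124, 209 and 179 in the 5 mutant libraries. These ranges overlap, and since a deletion at the targeted site need not remove the counted 3′ end of a transcript, the level checks neither the edit nor the labels. The 4.89 CPM of the second wild-type Day 10 library lay below every wild-type endoderm-like level (8.18 to 22.2 CPM). With each library clustered alone, no Day 10 cells were named amnion-like. The name amnion-like is therefore less sure for Day 10 cells than for later ones.

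DPP4, PTPRZ1 and EPHA4 each differed between cell types, and CD24 did not pass the threshold. DPP4 and EPHA4 were highest in endoderm-like cells, and PTPRZ1 was highest in Epi-like and transition-like cells and close to absent outside the epiblast and its derivatives. In a test over all types with the library as a block (edgeR's quasi-likelihood test with Benjamini-Hochberg adjustment, false discovery rate 1%), 8628 of 11216 genes (76.9%) were called in the wild-type libraries and 8354 of 11080 (75.4%) in the mutant libraries, so that 3 of 4 members is close to the share of genes in general. The edgeR adjusted p in wild-type libraries was 8.76e-08 for DPP4, 3.89e-12 for PTPRZ1, 3.01e-08 for EPHA4 and 0.260 for CD24. In the mutant libraries, which share no cells with the wild-type ones, it was 4.41e-13, 2.42e-13 and 4.63e-11 for the same 3 genes and 0.0123 for CD24.

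**Figure D1:**
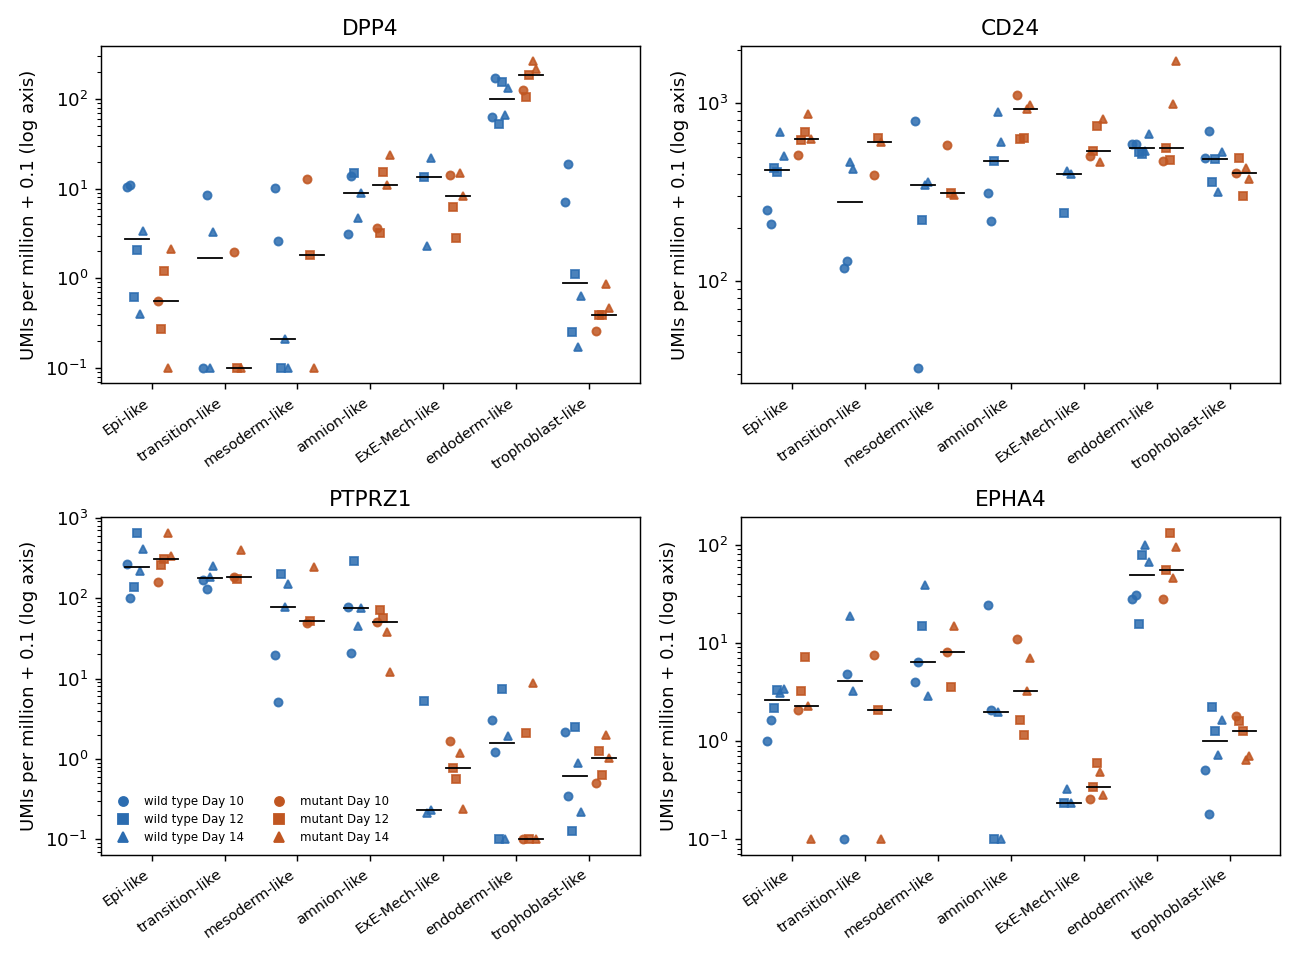
Level of DPP4, CD24, PTPRZ1 and EPHA4 in 7 cell types, in CPM plus 0.1 on a log axis. Each point is the sum over the cells of a type in 1 library with at least 5 such cells, blue for wild type and orange for mutant, with the shape giving the day, and black lines are medians over libraries. DPP4 and EPHA4 stand highest in endoderm-like cells in both genotypes, PTPRZ1 stands highest in Epi-like and transition-like cells, and CD24 is found in all types.

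DPP4 marked the endoderm-like cells. In wild-type embryos these cells held 63.2 and 169.6 CPM of DPP4 in the 2 libraries of Day 10, 52.3 and 156 on Day 12, and 65.5 and 134 on Day 14. The mutant libraries held 126 CPM on Day 10, 105 and 186 on Day 12, and 263 and 213 on Day 14. In every one of the 11 libraries the endoderm-like level lay above that of each other type of that library, and above the highest level of DPP4 in any other named type, 23.7 CPM in amnion-like cells of a mutant Day 14 library. Against the mean of the other types, endoderm-like DPP4 was higher by 5.29 ± 0.52 (log2, SE) in the wild type, with an edgeR adjusted p of 4.09e-09, and by 5.97 ± 0.31 in the mutant, with an edgeR adjusted p of 1.00e-13. This contrast called 41.6% of all genes in the wild type and 30% in the mutant, in either direction. Over all alternatives of the analysis the estimates stayed between 4.36 and 5.95 in the wild type and between 5.77 and 7.65 in the mutant and remained past the threshold. At 5000 UMIs per cell, between 14.6% and 72.7% of the endoderm-like cells of a library had at least 1 DPP4 UMI, compared with at most 6.96% of trophoblast-like cells. Amnion-like cells came closer, for example with 11 of 105 cells in the second mutant Day 12 library. Without thinning the endoderm-like shares were 64.2% to 100%. Unthinned shares also reached 73.3% in amnion-like, 59.6% in trophoblast-like and 48.75% in Epi-like cells of wild-type libraries. In mutant ExE-Mech-like cells they reached 59.3%, so the unthinned shares of endoderm-like and amnion-like cells overlapped. Thinning left out 1 wild-type and 37 mutant endoderm-like cells with fewer UMIs.

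The other types held little DPP4, at levels that varied between libraries. Amnion-like cells had 3.06 and 13.7 CPM on Day 10, 14.7 in the 1 library with these cells on Day 12, and 4.65 and 8.90 on Day 14 in the wild type, and 3.59, 3.11, 15.1, 10.9 and 23.7 in the mutant. ExE-Mech-like cells, a collagen-rich stroma that surrounds the early embryo, had 13.4, 2.22 and 21.7 CPM in the 3 wild-type libraries that held them and between 2.75 and 14.95 in the 5 mutant libraries. Against the mean of the other types, ExE-Mech-like cells differed by 1.80 ± 0.74 in the wild type (edgeR adjusted p = 0.0584) and 1.13 ± 0.36 in the mutant (edgeR adjusted p = 0.0126), and neither passed. ExE-Mech-like cells were numerous, however, and contributed more of the DPP4 UMIs of a library than endoderm-like cells did in 5 of the 8 libraries that held them, up to 66.2% in the second mutant Day 14 library. In mutant trophoblast-like cells DPP4 was lower than the mean of the other types (log2 change -4.19 ± 0.56, edgeR adjusted p = 6.74e-07), a call that was lost without the mutant Day 10 library (log2 change -2.39, edgeR adjusted p = 1.0). The same held for mutant Epi-like cells, where the log2 change was -3.40 ± 0.68 (edgeR adjusted p = 0.000271) with all libraries and -1.63 (edgeR adjusted p = 1.0) without that library.

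PTPRZ1 marked the epiblast and its derivatives. In Epi-like cells it stood at 263 and 99.4 CPM on Day 10, 136 and 655 on Day 12, and 218 and 413 on Day 14 in the wild type, and at 159.7 on Day 10, 259 and 309.6 on Day 12, and 647 and 333 on Day 14 in the mutant. Transition-like cells held 169.9 and 129 CPM on Day 10 and 182 and 248 on Day 14 in the wild type, and 182, 172 and 399.9 in the 3 mutant libraries with at least 5 such cells. Mesoderm-like cells held 19.4 and 4.98 CPM on Day 10, 201 on Day 12, and 77.9 and 151 on Day 14 in the wild type, and 49.4, 52.3 and 246 in the mutant. The values of the wild-type Day 10 libraries were the lowest of these. In contrast, PTPRZ1 did not exceed 8.65 CPM in endoderm-like, 5.21 in ExE-Mech-like and 2.38 in trophoblast-like cells of any library. The Epi-like level lay above the endoderm-like, ExE-Mech-like and trophoblast-like levels in all 11 libraries.

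Measured against the mean of the other types, PTPRZ1 was higher in Epi-like cells by 4.93 ± 0.33 (log2, SE) in the wild type (edgeR adjusted p = 2.22e-11) and 5.16 ± 0.27 in the mutant (edgeR adjusted p = 2.23e-12). The share of all genes called in this contrast was 34.8% in the wild type and 29.4% in the mutant. Transition-like cells were higher by 4.52 ± 0.40 and 4.30 ± 0.36, mesoderm-like cells by 2.21 ± 0.41 and 2.52 ± 0.45, and amnion-like cells by 2.27 ± 0.40 and 1.81 ± 0.33 in wild-type and mutant libraries, and each of these passed the threshold. The contrast called 12% and 7.64% of all genes for transition-like, 8.25% and 1.79% for mesoderm-like, and 7.25% and 11.8% for amnion-like cells. ExE-Mech-like cells (-5.05 ± 0.77 and -5.43 ± 0.52), endoderm-like cells (-3.86 ± 0.75 and -3.60 ± 0.66) and trophoblast-like cells (-5.02 ± 0.56 and -4.75 ± 0.46) were lower, and passed as well, where 27.4% and 32.2% of all genes were called for ExE-Mech-like and 52.3% and 49.2% for trophoblast-like cells. The mesoderm-like call is the least stable of these, since it was lost without the first Day 14 library in the wild type (edgeR adjusted p = 0.0362) and without any 1 of the 3 mutant libraries that held the type (edgeR adjusted p = 0.0190 to 0.0293), while the Epi-like call was kept in every alternative. At 5000 UMIs per cell, between 41.9% and 93.4% of the Epi-like cells of a library had a PTPRZ1 UMI, against at most 2.94% of endoderm-like and 0.755% of trophoblast-like cells. Without thinning the Epi-like shares were 93.9% to 100%.

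The wild-type library of 2 embryos on Day 12 stood high for PTPRZ1 in all of its epiblast-derived types, with 655 CPM in Epi-like, 287 in amnion-like and 201 in mesoderm-like cells. It also held the highest wild-type PTPRZ1 level of the endoderm-like (7.41 CPM), ExE-Mech-like (5.21 CPM) and trophoblast-like cells (2.38 CPM), where 3, 39 and 61 UMIs were counted. The other wild-type Day 12 library, from 1 embryo, had 14 Epi-like cells with 136 CPM.

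EPHA4 was, like DPP4, highest in the endoderm-like cells, but at a lower level that varied with the library. Wild-type endoderm-like cells held 27.9 and 30.9 CPM on Day 10, 15.5 and 79.0 on Day 12, and 99.3 and 66.8 on Day 14, and mutant ones 28.2 on Day 10, 55.1 and 133 on Day 12, and 45.7 and 94.9 on Day 14. Against the mean of the other types the level was higher by 4.36 ± 0.44 (log2, SE) in the wild type (edgeR adjusted p = 5.01e-09) and by 4.69 ± 0.36 in the mutant (edgeR adjusted p = 5.31e-11), and the estimates stayed between 4.20 and 6.27 and between 4.49 and 5.31 over all alternatives. Between 11.1% and 54.5% of endoderm-like cells of a library had an EPHA4 UMI at 5000 UMIs per cell, and between 25.0% and 77.1% without thinning. At 5000 UMIs per cell the share was at most 4.17% in Epi-like and 0.727% in trophoblast-like cells, but 14.7% (28 of 190) in mesoderm-like cells of the first wild-type Day 14 library and 22.2% (2 of 9) in amnion-like cells of the first wild-type Day 10 library.

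The mesoderm-like type pools cells of Day 10 with those of later days. For mesodermal cells of Day 10 the study proposes a likely extraembryonic identity, in part from their low EPHA4, and for those of Day 14 an embryonic one. The low Day 10 level here is therefore no independent evidence. Mesoderm-like cells came second for EPHA4 in the wild type, with 3.88 and 6.23 CPM on Day 10, 14.8 on Day 12 and 38.5 and 2.80 on Day 14. The highest of these values came from the first Day 14 library, which contributed 191 of the 265 wild-type mesoderm-like cells. The excess over the other types, 2.20 ± 0.57 (edgeR adjusted p = 0.00863), was lost with DESeq2 (adjusted p = 0.0151) and without that library (edgeR adjusted p = 0.264), and in the mutant the value was 0.95 ± 0.81 (edgeR adjusted p = 0.604) with 8.04, 3.49 and 14.9 CPM from 11 UMIs in all. Transition-like cells showed 18.6 CPM in the same Day 14 library and 7.45 or less in the others. In amnion-like cells EPHA4 reached 24.5 CPM in the first wild-type Day 10 library (16 UMIs in 9 cells) and 10.8 CPM in the mutant Day 10 library, and 6.92 CPM or less in the later ones. No Day 10 cells were named amnion-like with each library clustered alone. ExE-Mech-like cells were lower, with -5.47 ± 1.13 in the wild type and -4.01 ± 0.53 in the mutant, from 4 and 35 UMIs, and so were trophoblast-like cells, with -2.16 ± 0.66 in the wild type, and these passed.

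CD24 was found in every type. At 5000 UMIs per cell it was seen in between 60.6% and 95.2% of the Epi-like cells and between 52.1% and 81.7% of the trophoblast-like cells of a library. Its highest wild-type median over libraries was 561 CPM in endoderm-like cells and its lowest 278 CPM in transition-like cells. No type was called against the mean of the others in either genotype, the nearest being mutant trophoblast-like cells (-0.57 ± 0.21, edgeR adjusted p = 0.0202), a difference that DESeq2 called (adjusted p = 0.00434). The spread within a type was large on Day 10, where mesoderm-like cells of the 2 wild-type libraries stood at 795 and 32.4 CPM, the latter from 26 UMIs in 8 cells.

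Cells with UMIs of 2 members at once were counted against the number that the separate shares of these members give. In Epi-like cells of the first mutant Day 12 library, thinned to 5000 UMIs, 244 of 348 cells had UMIs of both CD24 and PTPRZ1, where their separate shares give 240.2. In endoderm-like cells of the same library 19 of 134 cells had both DPP4 and EPHA4, where the separate shares give 13.7. In the other 7 libraries with at least 20 such cells the pair was seen in 2, 3, 1 and 1 cells of the wild type, where the shares give 1.75, 2.29, 2.19 and 2.82, and in 2, 9 and 7 cells of the mutant, where they give 1.22, 7.92 and 7.10. Trophoblast-like cells with both CD24 and EPHA4 numbered 1 of 3957 and 2 of 3602 in the mutant Day 12 libraries against 15.9 and 8.86. They numbered 10 of 5824 against 11.9 in the first mutant Day 14 library and 3 of 2318 against 5.91 in the first wild-type Day 14 library, and all 4 counts lay below the number given by the separate shares. In the other 7 libraries the separate shares give fewer than 5 such cells, for example 4.33 in the second mutant Day 14 library, which had 4, and 1.94 in the mutant Day 10 library, which had 2. Across the 52 sums of a type in a library with at least 20 cells, the Spearman correlations between the members lay between -0.294 (DPP4 and PTPRZ1) and 0.247 (DPP4 and CD24). These points share libraries and depth, and the values are descriptions.

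Within the epiblast, CD24 rose from Day 10 to Day 14 of wild-type culture. This interval spans the change of the epiblast from a naive towards a primed state of pluripotency, and DPP4 and CD24 had been listed by the study among genes that change along it on these samples, so that their direction here is no independent evidence. CD24 stood at 249 and 209 CPM in the wild-type Epi-like cells of Day 10, at 429.9 and 408 on Day 12, and at 689 and 507 on Day 14, without overlap between days. The rise from Day 10 to Day 14 was 1.41 ± 0.27 (log2, SE, edgeR adjusted p = 0.00780), in a comparison that called 160 of 10433 genes (1.53%). With 2 libraries a day it rests on few samples: the call was lost in 7 of the 11 fits that left out 1 library (either wild-type Day 10 library, the first wild-type Day 14 library, or any of the 4 later mutant libraries, which share in the estimate of the spread), with an edgeR adjusted p of up to 0.158, while the estimates stayed between 1.09 and 1.67. At 5000 UMIs per cell, CD24 was seen in 70.5% and 60.6% of Epi-like cells on Day 10 and in 94.1% and 87.5% on Day 14.

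DPP4 stood higher on Day 10 than later in the same cells, without passing the threshold. The wild-type Epi-like cells held 10.4 and 11.02 CPM on Day 10 (69 and 173 UMIs), 0.524 and 1.99 on Day 12 (1 and 5 UMIs) and 0.297 and 3.29 on Day 14 (3 and 2 UMIs). Both Day 10 values lay above all 4 later ones. The log2 difference between Day 14 and Day 10 was -4.15 ± 0.98 (edgeR adjusted p = 0.0275), and it was called without a filter on low counts (edgeR adjusted p = 1.48e-05) and not by DESeq2 (adjusted p = 0.0836). PTPRZ1 (0.76 ± 0.78, edgeR adjusted p = 0.682) did not differ beyond the spread between libraries, and EPHA4 stood at 0.900 and 1.53 CPM on Day 10 and 2.97 and 3.29 on Day 14. Among genes that the study names for the naive state, 4 of 4 had estimates that fell between the same days, namely DNMT3L (a cofactor of DNA methylation, by 3.29), KHDC1L (by 6.83), NLRP7 (by 4.55) and OOEP (by 3.81). Their median log2 change was -4.18 against -0.01 over all genes, and they are given here as estimates without their tests. The comparison called 1.53% of all genes. Of 4 genes named for the primed state 2 passed the test, both upwards, the retinoic acid binding protein CRABP2 (3.06) and the matrix proteoglycan VCAN (4.13). The WNT antagonist SFRP1 (4.44 ± 1.10, edgeR adjusted p = 0.0995) and the deubiquitinase USP44 (1.25 ± 0.26, edgeR adjusted p = 0.0128) did not pass, and the median of the 4 was 3.598. These lists, too, were chosen by the study on these samples.

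The higher DPP4 of Day 10 was also found in trophoblast-like cells and unnamed clusters of the wild type. Trophoblast-like cells of the 2 wild-type Day 10 libraries held 7.00 and 18.9 CPM (170 and 458 UMIs), and unnamed clusters of these libraries 14.8 and 18.7 CPM, compared with at most 1.01 CPM in trophoblast-like cells of the 9 other libraries. Of the Day 10 trophoblast-like clusters, 2 were low in the markers CGA (21.4 and 5.44 CPM), PAGE4 (8.21 and 2.90) and INSL4 (8.06 and 14.1). They held 36.5 and 20.8 CPM of DPP4, came mostly from these 2 libraries, and are less surely trophoblast. DPP4 in the other trophoblast-like clusters is given below. The trophoblast-like change from Day 10 to Day 14 was -5.73 ± 1.10 (edgeR adjusted p = 0.0193) and did not pass the threshold, in a comparison that called 219 of 15132 genes (1.45%). DESeq2 called it (adjusted p = 6.27e-08). With the batches that the labels name within each genotype as a block, added after seeing the data, it passed (-5.86, edgeR adjusted p = 0.00831), and 79 genes were called. The mutant Day 10 library had 0.459 CPM in Epi-like and 0.158 in trophoblast-like cells, although its endoderm-like cells stood at 126 CPM, between those of the 2 wild-type libraries. Its mesoderm-like cells had 12.6 CPM, the highest mesoderm-like level of any library, from 11 UMIs that lay in 1 of 8 cells. The study's correction for free RNA had removed 0.181% and 0.0712% of the DPP4 UMIs of the wild-type Day 10 libraries. The summed level of 8 endoderm markers such as APOA1 and TTR was 269 and 215 CPM in trophoblast-like cells of these 2 libraries (8 and 7 of the 8 with a UMI) and between 4.57 and 66.1 CPM in the other 9 libraries, and in Epi-like cells it was 46.1 and 16.5 CPM against 8.90 to 40.6. The part of endoderm RNA in the Day 10 DPP4 level was not tested.

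**Figure D2:**
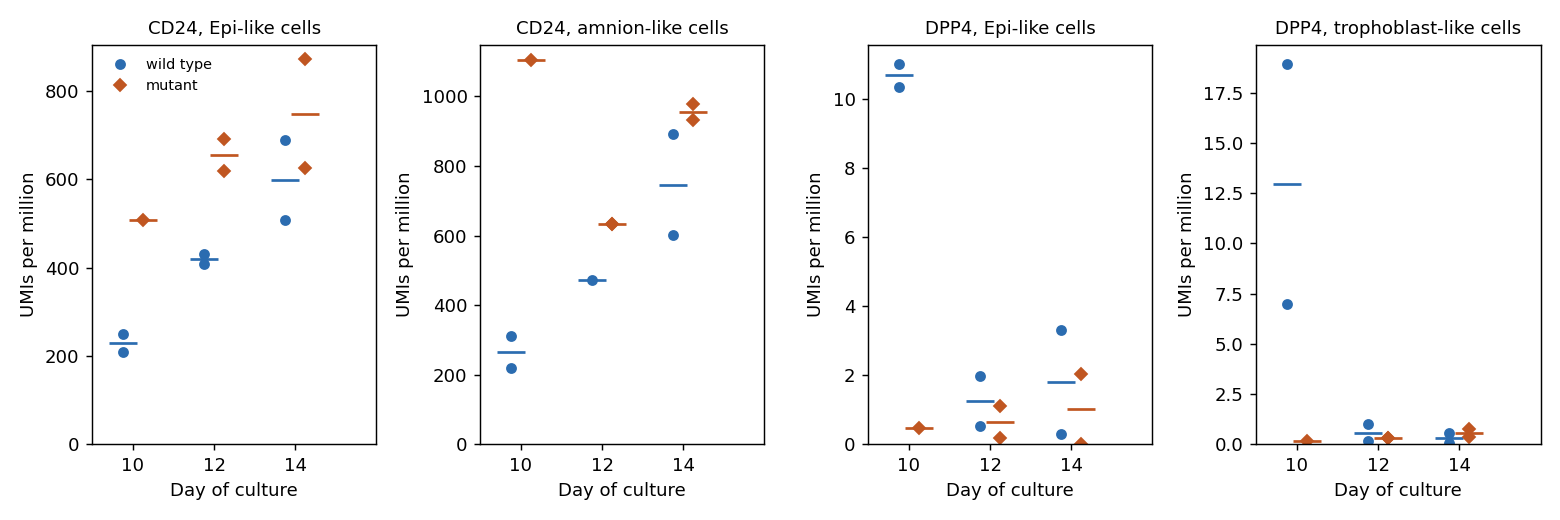
CD24 in Epi-like and amnion-like cells and DPP4 in Epi-like and trophoblast-like cells, in CPM by day of culture. Points are libraries and dashes are means of a genotype and day. CD24 stands lowest in the wild-type Day 10 libraries (209 and 249 CPM in Epi-like cells), and DPP4 stands highest in them (10.4 and 11.02 CPM in Epi-like cells).

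In endoderm-like cells the same interval changed 5 of 9776 genes (0.0511%), or 59 with the batch within each genotype as a block, and no member was called in either fit. DPP4 differed by -0.31 ± 0.58 (edgeR adjusted p = 0.963), CD24 by 0.01 ± 0.31 (edgeR adjusted p = 1.0) and EPHA4, with 27.9 and 30.9 CPM on Day 10 and 99.3 and 66.8 on Day 14, by 1.51 ± 0.62 (edgeR adjusted p = 0.479). In trophoblast-like cells CD24 differed by -0.51 ± 0.28 (edgeR adjusted p = 0.312) and EPHA4 by 2.03 ± 0.75 (edgeR adjusted p = 0.131).

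To ask whether the edit of ISL1 changed the surface markers within a lineage, mutant and wild-type libraries of Day 12 and Day 14 were compared. None of the 4 genes passed the threshold in any of the 6 types in which it was tested, EPHA4 having too few UMIs for the test in ExE-Mech-like cells. Of their differences 4 had an unadjusted p under 0.05 (PTPRZ1 in amnion-like cells and CD24 in endoderm-like, Epi-like and ExE-Mech-like cells). These comparisons called 27 of 10433 genes in Epi-like (0.259%), 1 of 8253 in mesoderm-like (0.0121%), 4 of 9817 in amnion-like (0.0407%), 2 of 9776 in endoderm-like (0.0205%), 1 of 15132 in trophoblast-like (0.00661%) and 0 of 12790 in ExE-Mech-like cells (0%). An unadjusted p under 0.05 was frequent among all genes tested. It was found for 1863 genes in Epi-like, 638 in mesoderm-like, 1760 in amnion-like, 830 in endoderm-like, 2862 in trophoblast-like and 2189 in ExE-Mech-like cells. In ExE-Mech-like cells DESeq2 called 243 genes. On simulated data the Epi-like fit called 37.3% of genes changed by 1 on the log2 scale and 95.5% of those changed by 2. The trophoblast-like fit called 14.9% and 80.6%, and the genotype fits of the other types were not simulated. Changes were simulated only in genes with higher counts, so these shares do not hold for members with few UMIs. A change of a member by less than 1 on this scale would often have been missed.

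CD24 had estimates above 0, that is, higher in the mutant, in 5 of the 6 types. Of these, the mesoderm-like estimate had an unadjusted edgeR p of 0.955 and turned negative with a replicate block and on Day 14 alone. The types come from the same libraries, so their shared direction is not separate evidence. In Epi-like cells the mutant libraries held 619 and 691 CPM on Day 12 and 872 and 625 on Day 14, against 429.9 and 408 on Day 12 and 689 and 507 on Day 14 in the wild type, a difference of 0.51 ± 0.19 (log2, SE, edgeR adjusted p = 0.164). The 4 mutant values lay above 3 of the 4 wild-type values. Day 10, which entered the fit with 1 mutant library and has no test of its own, showed the widest gap, with 509 CPM in the mutant against 249 and 209. In ExE-Mech-like cells the mutant held 542, 740.2, 468 and 812 CPM against 242, 418 and 399 in the wild type, all 4 above all 3, and the difference was 1.10 ± 0.29 (edgeR adjusted p = 0.179, DESeq2 adjusted p = 0.00919). Amnion-like cells (0.44 ± 0.23, edgeR adjusted p = 0.340) and endoderm-like cells (0.53 ± 0.22, edgeR adjusted p = 0.540) had estimates in the same direction, and trophoblast-like cells had -0.10 ± 0.20 (edgeR adjusted p = 0.823). The endoderm-like estimate came from Day 14, when the mutant libraries held 992 and 1719.6 CPM against 536 and 673, the highest of them from 11 cells, and on Day 12 alone it was -0.07.

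PTPRZ1 was lower in mutant amnion-like cells in the estimate, without passing the threshold. The mutant amnion-like cells held 70.5 and 56.8 CPM on Day 12 and 37.4 and 11.9 on Day 14, against 287 in the 1 wild-type library on Day 12 and 45.1 and 76.2 on Day 14. The log2 difference was -1.72 ± 0.50 (edgeR adjusted p = 0.155), and it passed with DESeq2 (adjusted p = 0.00992), without a filter on low counts (edgeR adjusted p = 1.48e-07) and with each library clustered alone (-2.52, edgeR adjusted p = 8.04e-05). That last fit had no amnion-like cells of the first wild-type and the second mutant Day 14 library and so rested on 1 wild-type library a day, that of Day 12 being the one with 287 CPM. Its Day 12 amnion-like cells were all AM-1-like in the wild type (39 cells) and all AM-2-like in the mutant libraries (66 and 49 cells). At Day 14 the mutant and wild-type values did not overlap, but the size of the difference rests in part on the wild-type Day 12 library, which was high for PTPRZ1 in other types as well, and was -1.36 (edgeR adjusted p = 0.335) without it. The make-up of the amnion-like cells also differed. Of them, 3 of 22 were AM-2-like in that library and 32 of 57 and 7 of 35 in the wild-type Day 14 libraries, compared with 34 of 112 and 6 of 109 in the mutant Day 12 libraries and 54 of 79 and 48 of 55 in the mutant Day 14 libraries. The part of this make-up in the difference was not tested. In Epi-like cells, by contrast, PTPRZ1 differed by 0.15 ± 0.55 between genotypes (edgeR adjusted p = 0.926).

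DPP4 in endoderm-like cells differed by 0.92 ± 0.43 (edgeR adjusted p = 0.605). At Day 14 both mutant values, 263 and 213 CPM, lay above both wild-type ones, 65.5 and 134, whereas the Day 12 values overlapped. EPHA4 in endoderm-like cells (0.33 ± 0.47, edgeR adjusted p = 0.923) overlapped at both days. In mesoderm-like cells, which were fewer than 5 in both of the second mutant libraries, PTPRZ1 differed by -0.42 ± 0.46 (edgeR adjusted p = 0.869) and turned to 1.08 on Day 14 alone. The median over all genes in that comparison was -0.13. The difference between the mutant effects on Day 14 and Day 12 was called for 0 genes in each type by edgeR (450 to 1446 genes with an unadjusted p under 0.05), and was not run with DESeq2.

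The amnion is the membrane that encloses the embryo, and the study describes its AM-1 and AM-2 populations together at Day 14. The study proposes that AM-2 is amniotic epithelium and seems absent from the early embryo, and that AM-1 lies closer to the embryonic disc. AM-1-like and AM-2-like cells could be compared within 6 libraries. CD24 was higher in AM-2-like cells of 5 of the 6 libraries and PTPRZ1 lower in 5 of the 6, and neither passed the threshold in a comparison that called 174 of 5572 genes (3.12%). With each library clustered alone, only the first mutant Day 14 library held both populations (44 and 69 cells). The comparison could therefore not be run in that alternative, and the split rests on the integrated clusters. CD24 stood at 591 and 505 CPM in AM-1-like and at 1309 and 1125 in AM-2-like cells of the wild-type Day 14 libraries, at 547 and 619.6 against 809 and 831 in the mutant Day 12 libraries, and at 641 and 1078 against 1112 and 938 in the mutant Day 14 libraries. The difference of 0.70 ± 0.16 (edgeR adjusted p = 0.0151) was called by DESeq2 (adjusted p = 0.00685) and without the second mutant Day 14 library (0.85, edgeR adjusted p = 0.00158), the one in which AM-1-like cells (7 in number) were higher.

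PTPRZ1 stood at 70.3 and 84.4 CPM in AM-1-like against 10.0 and 32.4 CPM in AM-2-like cells of the wild-type Day 14 libraries. It stood at 86.0 and 55.4 against 38.3 and 74.8 CPM in the mutant Day 12 libraries and at 56.8 and 31.8 against 25.3 and 4.12 CPM in the mutant Day 14 libraries. The difference was -1.39 ± 0.34 (edgeR adjusted p = 0.0230), and without the second mutant Day 12 library, which had 6 AM-2-like cells, it was -1.73 (edgeR adjusted p = 0.000997). DPP4 and EPHA4 had too few UMIs for this comparison. The complement regulator CD59 (1.66 ± 0.21, edgeR adjusted p = 5.69e-05), which like CD24 is held by a GPI anchor, and the tetraspanin CD81 (0.59 ± 0.13, edgeR adjusted p = 0.00845) were higher in AM-2-like cells.

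**Figure D3:**
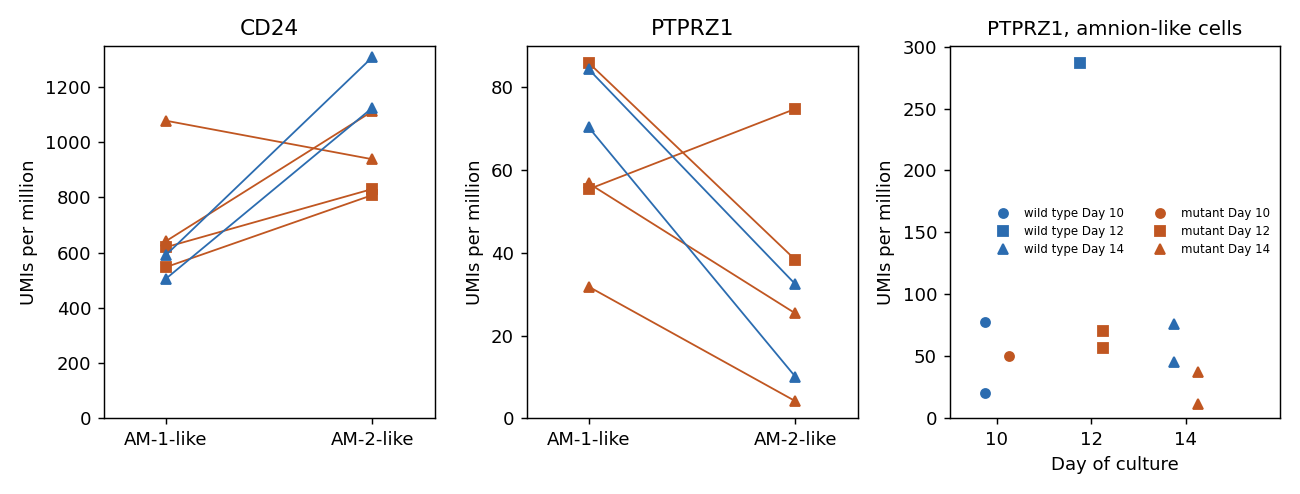
CD24 and PTPRZ1 in AM-1-like and AM-2-like cells, with a line for each of the 6 libraries that held at least 5 cells of both, and PTPRZ1 in all amnion-like cells by day, in CPM. CD24 stands higher in AM-2-like cells of 5 libraries and PTPRZ1 lower in 5, and the wild-type Day 12 library at 287 CPM stands apart in the right panel.

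Between the 2 mesoderm populations, meso-1-like cells with CDX genes and meso-2-like cells with MIXL1 and MESP1, neither CD24 nor PTPRZ1 passed the threshold in a comparison over 4 libraries that called 57 of 4840 genes (1.18%). CD24 differed by -0.06 ± 0.12 (edgeR adjusted p = 0.941) and PTPRZ1 by 0.65 ± 0.32 (edgeR adjusted p = 0.539), the latter being called without the first wild-type Day 14 library (1.34, edgeR adjusted p = 0.00209). DPP4 and EPHA4 had too few UMIs for the test. In the first wild-type Day 14 library EPHA4 stood at 25.4 CPM in meso-1-like and 41.6 in meso-2-like cells.

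Trophoblast-like cells, 21983 in 58 clusters, were split further by hormone and surface genes to see where CD24 lay among them. The cut-offs were chosen after the values had been seen, so the following are descriptions without a test. In the 2 clusters low in CGA and PAGE4 (under 100 CPM of both), 159 cells that came mostly from the wild-type Day 10 libraries, CD24 stood at 1158 and 1145 CPM in these 2 libraries. In the 12 clusters high in PAGE4 (at least 1000 CPM) and low in CGA, the pattern of proliferating cytotrophoblast, it ranged from 577 to 881 CPM over 8 libraries, and 1 of these clusters, 276 cells of Day 14, had the highest CD24 of any trophoblast-like cluster (1658 CPM, against 1454 and 818 in the 2 clusters low in both genes). The 9 clusters with at least 10000 CPM of CGA, the alpha subunit of choriogonadotropin and a product of syncytiotrophoblast, held between 87.2 and 347 CPM in 11 libraries. LAIR2 is a gene of invasive extravillous trophoblast, and 12 clusters had at least 1000 CPM of it and under 10000 CPM of CGA, which leaves out 3 CGA-high clusters that also passed the LAIR2 limit. In these 12 clusters CD24 lay between 79.3 and 341 CPM in 8 libraries, and between 44.2 and 582 CPM in the single clusters. The ranges over libraries of the PAGE4-high clusters lay wholly above those of the CGA-high and the LAIR2-high clusters, and so did those of single clusters, at 682 CPM or more in PAGE4-high and 254 CPM or less in CGA-high ones. This separation depends on the limit of under 1000 CPM of CGA in the PAGE4-high set. The 23 clusters outside these sets held 7654 cells. Those of them with at least 1000 CPM of both PAGE4 and CGA had between 93.6 and 1145 CPM of CD24. In the cluster with most CGA, this gene alone reached 169042 CPM, which lowers the CPM of every other gene there, CD24 included.

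EPHA4, at 0.0827 to 2.15 CPM in trophoblast-like cells as a whole, varied among the CGA-high clusters. Of the 9, 5 had between 3.00 and 18.3 CPM, above every trophoblast-like cluster outside the set (1.39 CPM or less). Of the remaining ones 1 had 1.56 CPM, and the other 3 had between 0.430 and 0.687 CPM. By library the set ranged from 0.239 to 14.3 CPM with a median of 3.95 over 11 libraries, while EPHA4 did not exceed 0.560 CPM in the other 3 sets. PTPRZ1 stood at 1.04 to 3.85 CPM in the LAIR2-high clusters, apart from 11.5 CPM (26 UMIs) in the wild-type Day 12 library that was high for it in other types, and did not exceed 0.495 CPM in the PAGE4-high ones. It reached 5.98 CPM in the CGA-high clusters and 4.22 CPM in those low in CGA and PAGE4, both in the first wild-type Day 10 library. In the 2 wild-type Day 10 libraries DPP4 stood at 17.5 and 45.2 CPM in the clusters low in CGA and PAGE4, at 2.39 and 17.2 CPM in the CGA-high clusters, and at 3.604 and 9.74 CPM in the clusters outside the 4 sets. In the other 9 libraries it did not exceed 1.66 CPM in any of these. The PAGE4-high and LAIR2-high clusters held fewer than 20 cells of either wild-type Day 10 library and were not compared there. Unnamed clusters of the same 2 libraries resembled the clusters low in CGA and PAGE4 in CD24, with 1276 and 1253 CPM, and held 51.2% of the CD24 UMIs of the second Day 10 library.

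**Figure D4:**
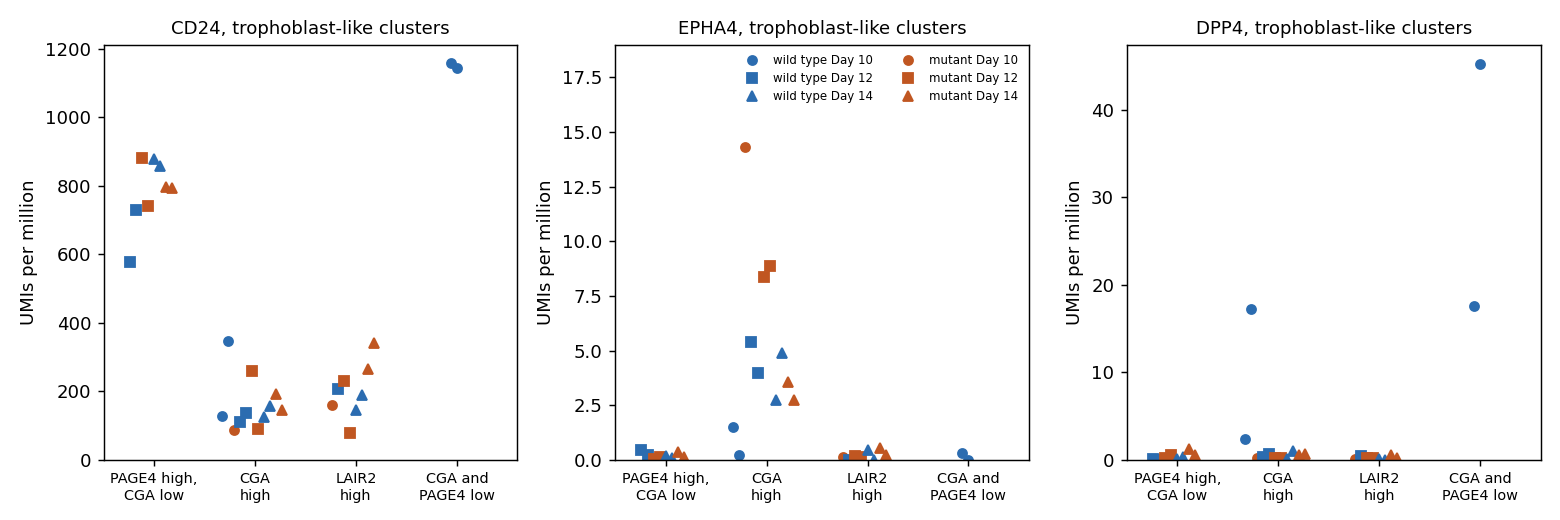
CD24, EPHA4 and DPP4 in 4 sets of trophoblast-like clusters defined by CGA, PAGE4 and LAIR2, in CPM. Each point is 1 library, blue for wild type and orange for mutant. CD24 stands between 577 and 881 CPM in PAGE4-high clusters and at 347 CPM or less in CGA-high and LAIR2-high ones, whereas EPHA4 stands highest in CGA-high clusters, apart from a wild-type Day 10 library at 0.239 CPM.

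Genes related to the members were described with them where an identifier could be found. Of 12 relatives, partners and substrates of DPP4, 6 had one, and in wild-type endoderm-like cells 3 of these were higher than the mean of the other types, DPP6 (7.98 ± 0.32), a relative of DPP4 without peptidase activity, the glypican GPC3 (5.65 ± 0.31) and the neuropeptide NPY (2.04 ± 0.50), in a contrast that called 41.6% of all genes in either direction. NPY, a substrate of DPP4, ranged from 0 to 171 CPM in these cells, and in mutant endoderm-like cells its difference was 0.47 ± 0.53 (edgeR adjusted p = 0.519). The chemokine CXCL12, another substrate, was lower in wild-type endoderm-like cells (-3.72 ± 0.66) and was found instead in Epi-like (109 to 152 CPM), transition-like (89.2 to 124 CPM) and amnion-like cells (50.9 to 272 CPM). With CXCL12, 4 of the 6 genes were called in that contrast. The median of the 6 genes there was 0.98, against -0.02 over all genes. Of 9 ligands, partners and relatives of PTPRZ1, 2 had an identifier. The ligand MDK, at 729 to 933 CPM in wild-type Epi-like cells, was highest in endoderm-like cells (868 to 2383 CPM, with a difference from the other types of 1.09 ± 0.19) and lowest in trophoblast-like cells (-2.45 ± 0.24). The phosphatase PTPRR was higher in endoderm-like cells by 4.77 ± 0.40, where PTPRZ1 was low, and their median there was 2.93.

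Of 21 Eph receptors and ephrins besides EPHA4, 3 had an identifier, all of them receptors. None of the 3 was called higher in endoderm-like cells, where their median was 0.64. EPHB6 was higher in Epi-like cells (2.87 ± 0.36), whereas EPHA1 and EPHA6 were higher in mesoderm-like cells (2.14 ± 0.30 and 2.41 ± 0.45), in transition-like cells (2.55 ± 0.32 and 2.24 ± 0.53) and in amnion-like cells (1.61 ± 0.31 and 2.60 ± 0.45) of the wild type, and all 3 were lower in trophoblast-like cells (median -4.35), where 52.3% of all genes were called. Of 8 partners of CD24 and other GPI-anchored or tetraspanin proteins, 5 had an identifier. In wild-type trophoblast-like cells the GPI-anchored complement regulators CD55 (4.92 ± 0.30) and CD59 (3.99 ± 0.15) were higher and the tetraspanins CD9 (-1.26 ± 0.20) and CD81 (-2.58 ± 0.18) lower, while CD24, with 0.56 ± 0.33 (edgeR adjusted p = 0.147), was not called, and the median of the 5 was -1.26. These 4 of 5 calls stand beside the 52.3% of all genes called in that contrast. LYPD1, a GPI-anchored protein that is also one of the AM-2 markers, was higher in amnion-like cells (6.92 ± 0.85). No gene of these lists was called in a comparison of mutant and wild type.

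For each member the 3 genes whose pattern was most like it were taken among 990 genes with a symbol, over the same 52 sums. DPP4 was followed by the phospholipase PLA2G12B (Spearman 0.81), CHP1 (0.80) and the fucosyltransferase FUT8 (0.79), and PTPRZ1 by the pluripotency factor UTF1 (0.89), the growth factor FGF19 (0.87) and the phospholipase PLCH1 (0.87), of which UTF1 is a marker that named the Epi-like clusters. EPHA4 was followed by TACC2 (0.80) and the transcription factors ZIC2 (0.74) and EOMES (0.73). CD24 had the least similar followers, MYL6B (0.67), TM7SF2 (0.64) and MDK (0.62).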

How the data were processed

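Droplet libraries of the 3′ ends of transcripts were aligned and counted by the authors with Cell Ranger 3.1.0 against an Ensembl annotation of the cynomolgus macaque, and genes found in at least 3 cells and cells within limits of gene number and mitochondrial share were kept. The authors deposited a table of UMI counts of 33539 cells and a table of estimated counts of 33330 cells after free RNA had been subtracted with SoupX from hormone transcripts in POU5F1-positive cells. The subtraction had taken 0.196% to 8.77% of the UMIs of a library. The estimated counts, which were whole numbers, were used throughout, and the uncorrected counts of the same cells served as an alternative. Symbols were known for 1020 of the 19367 genes.

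Cells were integrated per day in Seurat 5.3.0 by reciprocal PCA (5000 features, 30 dimensions, resolution 0.8), with 28 genes left out of the features, among them the 4 members, ISL1 and the related genes that were not markers. Clusters were named from 9 marker lists when at least 3 markers were found in at least 25% of cells and the 10 leading genes did not go against the name. This check was written after the marker tables of the clusters had been seen, without the members' values. No doublet caller was run, and an alternative left out the 5% of cells with the most UMIs. UMIs were summed per type and library (at least 5 cells) and tested with edgeR 4.0.16 in R 4.3.3 (TMM, filterByExpr, robust quasi-likelihood F test, Benjamini-Hochberg over all genes, false discovery rate 1%). The standard error is the log2 fold change divided by the square root of F. Fold changes of a member are given where its mean level was at least 10 CPM or its unadjusted p was under 0.05. In contrasts of a cell type with the others only the p was used. EPHA4 in mutant mesoderm-like cells and CD24 in wild-type trophoblast-like cells did not meet it and are given for comparison. DESeq2 1.42.0, RLE factors, no filter, each library clustered alone and each library left out were among the alternatives. A block for the batches that the labels name within each genotype was added as an alternative after seeing the data. Simulated data were run through the fits of wild-type cell types, of Day 14 against Day 10 in Epi-like cells, and of mutant against wild type in Epi-like and trophoblast-like cells. The other fits were not simulated. The related genes were named by lists, and likeness by Spearman correlation of log2(CPM + 1) over sums of at least 20 cells. Members and lists were chosen with earlier results of these data known.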

Additional observations from a re-analysis of the deposited data

How the results depend on the processing

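Of 231 alternative counts of called genes 129 stayed within 1.5 times the value reported, and of 950 alternative fold changes of a member 860 kept direction and side of the threshold, 33 reversed, 22 passed newly and 35 no longer passed. Where not stated, the cause was not tested. Genes called between cell types numbered 7491 to 8156 in the wild type and 7106 to 7893 in the mutant with 1 library left out. For Day 14 against Day 10 in Epi-like cells (160), DESeq2 and libraries clustered alone each gave 249, no filter 635 and leaving out 1 library 10 to 279. The endoderm-like count (5) became 35 with DESeq2, 212 without a filter, 0 clustered alone, 9 with a replicate block and 2 to 19 with 1 library left out, and the trophoblast-like count (219) 1734 with DESeq2, 69 with a replicate block and 0 to 520 with 1 library left out.

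For mutant against wild type, the Epi-like count (27) became 170 with DESeq2, 402 without a filter, 17 on uncorrected counts, 16 without the check of leading genes, 1 at Day 12 alone and 5 to 64 with 1 library left out. The mesoderm-like count (1) became 3 with DESeq2, 23 without a filter, 3 clustered alone, 2 with a replicate block, 3 at either day alone and 1 to 7 with 1 library left out. The amnion-like count (4) became 94 with DESeq2, 337 without a filter, 1 on uncorrected counts, 2 without the cells with the most UMIs, 441 clustered alone, 11 without the check of leading genes or with a replicate block, 9 at Day 14 and 1 at Day 12 alone, and 1 to 13 with 1 library left out. The ExE-Mech-like count (0) became 243 with DESeq2, 26 without a filter and 0 to 1 with 1 library left out. The endoderm-like count (2) became 31 with DESeq2, 108 without a filter, 0 without the cells with the most UMIs, 1 clustered alone, 0 at either day alone and 0 to 4 with 1 library left out. The trophoblast-like count (1) became 606 with DESeq2, 0 at Day 14 alone and 0 to 39 with 1 library left out. AM-2-like against AM-1-like (174) gave 526 without a filter, 7 with no replicate block and 72 to 231 with 1 library left out, and meso-1-like against meso-2-like (57) gave 219, 0 and 21 to 64, with 1 clustered alone. The comparison of AM-2-like with AM-1-like cells could not be run clustered alone.

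Reversals concerned differences that were not called. In endoderm-like cells from Day 10 to Day 14, CD24 was -0.018 without a filter, -0.10 without the cells with the most UMIs and -0.10 to 0.11 with 1 library left out, and DPP4 was -0.88 to 0.62 with 1 left out. Between genotypes, PTPRZ1 in Epi-like cells was -0.16 clustered alone, -0.44 at Day 12 alone and -0.20 to 0.88 with 1 left out. In mesoderm-like cells CD24 was -1.61 with a replicate block, -0.31 at Day 14 alone and -0.32 to 0.54 with 1 left out, PTPRZ1 was 1.08 at Day 14 alone and -1.91 to 1.08, and EPHA4 was -2.03 to 0.14. DPP4 in amnion-like cells was -0.081 clustered alone, -0.65 at Day 12 alone and -0.29 to 1.59 with 1 left out, and in ExE-Mech-like cells 0.077 at Day 14 alone and -1.16 to 0.40. EPHA4 in endoderm-like cells was -0.30 clustered alone, -0.43 at Day 14 alone and -0.12 to 0.94, CD24 there was -0.074 at Day 12 alone, and CD24 in trophoblast-like cells was -0.28 to 0.054. CD24 between the mesoderm populations was 0.025 without the cells with the most UMIs.

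Replicate numbers are batch numbers, which the labels name within each genotype and not across genotypes. Samples of the same number deviated together with correlations of -0.353 to 0.498 over 41 pairs of groups, 10 of them above 0.1, and of -0.109 to 0.498 over the 17 pairs within a genotype, 9 of them above 0.1. A replicate block within each genotype, chosen after seeing the data, gave 162 genes in Epi-like, 59 in endoderm-like and 79 in trophoblast-like cells from Day 10 to Day 14, and of the members it changed the call of DPP4 in trophoblast-like cells alone (-5.86, edgeR adjusted p = 0.00831). As these batches lie within a genotype, no block within each genotype was fitted between genotypes. The replicate block given above for mutant against wild type treated equal numbers as the same batch across genotypes, which the labels do not state.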
